A study of Mus musculus with 2 samples.

Results

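The 10 genes described here are *Apoe*, *Trem2*, *Gpnmb*, *Spp1*, *Lpl*, *Fabp5*, *Cd36*, *Lgals3*, *Abca1* and *Abcg1*, a set known from macrophages that hold lipid. They were chosen by symbol, and all 10 were found among the 32285 gene rows of each count table. The tables are single-cell RNA counts of live cells sorted from subcutaneous tumors of MC38, a mouse colon cancer cell line, after dissociation and lysis of red blood cells. One library came from *Lmo7*+/+ hosts and 1 from *Lmo7*-/- hosts, in which *Lmo7*, a gene for an E3 ubiquitin ligase, is deleted in all tissues. The implanted MC38 cells carried no such deletion, so that only host cells differ in genotype. The hosts were female mice on the C57BL/6 background, implanted at an age of 6 to 8 weeks, and the number of mice behind each library is not named. With 1 library per genotype there were no replicates, so that differences between the genotypes could not be tested and the values hold for these 2 libraries alone.

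Macrophages that take up lipid from dying cells or lipoproteins handle it in steps, and the 10 genes cover most of them. *Cd36* encodes a scavenger receptor and fatty acid transporter at the cell surface, *Lpl* a secreted lipase that frees fatty acids from lipoproteins, and *Fabp5* a carrier of fatty acids inside the cell. *Abca1* and *Abcg1* encode pumps that export cholesterol to acceptors such as apolipoprotein E, the product of *Apoe*, and all 3 are classic targets of the liver X receptors. TREM2, a surface receptor for lipids and lipoproteins, signals through the adaptor TYROBP. *Gpnmb*, *Spp1* (osteopontin) and *Lgals3* (galectin-3) encode glycoproteins and a lectin that accompany TREM2 in lipid-associated macrophages, and tumor cells can make them too.

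Stretches of 250 bases before a listed transcription start were taken from RefSeq (GRCm38) for the 7 members listed there, which are all but *Lpl*, *Fabp5* and *Abcg1*. For *Cd36* and *Lgals3* the only start listed lies inside the annotated gene (chr5:17781690-17888801 and chr14:47367751-47386160). The bases before the outermost start of these genes are therefore not covered. *Cd36* is shown because it differed most between the libraries in macrophages, *Gpnmb* and *Spp1* because their counts were concentrated in 1 macrophage state, and *Abca1* because it held most matches. Capitals mark matches on either strand to CACGTG (the E-box), TGACTCA (the AP-1 site), AGGTCA (the nuclear receptor hexamer) and DR4, a spaced pair of half-sites of the kind that liver X receptors bind, searched as 2 copies of GGTNA with 5 bases between them, of which a copy can lie within AGGTCA. The sequences read 5′ to 3′ on the strand of the gene, from chr5:17835897-17836146 (minus strand) for *Cd36*, chr6:49036268-49036517 (plus strand) for *Gpnmb*, chr5:104434861-104435110 (plus strand) for *Spp1* and chr4:53159896-53160145 (minus strand) for *Abca1*.
Cd36: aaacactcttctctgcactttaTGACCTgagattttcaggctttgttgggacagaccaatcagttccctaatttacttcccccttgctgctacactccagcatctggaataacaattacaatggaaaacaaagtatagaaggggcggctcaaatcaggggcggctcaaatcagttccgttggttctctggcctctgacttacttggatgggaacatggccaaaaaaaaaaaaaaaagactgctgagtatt
Gpnmb: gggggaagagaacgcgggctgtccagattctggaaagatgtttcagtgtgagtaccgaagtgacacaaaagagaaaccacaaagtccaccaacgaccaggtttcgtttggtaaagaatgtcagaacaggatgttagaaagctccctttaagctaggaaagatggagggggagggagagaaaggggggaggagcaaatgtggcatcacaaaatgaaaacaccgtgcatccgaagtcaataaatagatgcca
Spp1: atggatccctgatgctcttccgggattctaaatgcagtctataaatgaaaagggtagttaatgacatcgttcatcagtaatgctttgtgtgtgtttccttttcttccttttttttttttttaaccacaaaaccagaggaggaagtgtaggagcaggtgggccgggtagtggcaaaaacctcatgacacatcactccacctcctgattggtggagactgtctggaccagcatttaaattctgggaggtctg
Abca1: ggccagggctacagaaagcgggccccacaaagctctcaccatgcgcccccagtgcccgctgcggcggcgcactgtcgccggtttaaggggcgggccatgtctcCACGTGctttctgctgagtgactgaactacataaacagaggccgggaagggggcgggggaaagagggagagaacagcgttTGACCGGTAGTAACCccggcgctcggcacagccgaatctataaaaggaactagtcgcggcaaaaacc
*Abca1* held 1 E-box that began 147 bases before the start and 1 DR4 match that began 67 bases before it. *Cd36* held 1 AGGTCA match that began 228 bases before its listed start, and *Trem2* 1 that began 68 bases before its own. *Gpnmb*, *Spp1*, *Apoe* and *Lgals3* held none of the 4 motifs in this window. Of 32851 such stretches in the table, 6.02% held the E-box, 4.46% the AP-1 site, 14.0% the AGGTCA hexamer and 0.621% the DR4 pair.

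Of 16208 and 15163 droplets, with 98582479 and 80648345 UMIs (tags that each mark 1 captured RNA molecule), 13542 and 11860 cells passed the filters, and the first number of each pair is that of the *Lmo7*+/+ library. The cells kept had medians of 4535.5 and 4304.5 UMIs, and 175 of their barcodes occurred in both libraries. Macrophage-like cells numbered 3574 and 4141 and had all 12 macrophage markers. Monocyte-like cells numbered 987 and 758 and had all 10 monocyte markers. Tumor cell-like cells numbered 5280 and 3652, and only 9 and 8 of the 19 tumor markers reached 5 CPM in them. *Krt14* stood at 37.6 and 54.2 CPM there, *Ptprc*, which encodes the leukocyte marker CD45, at 4.15 and 4.80 CPM, and the epithelial genes *Krt8*, *Krt18* and *Epcam* did not exceed 4.56 CPM. *Krt8* had 173 and 5 counts, *Krt18* 136 and 1 and *Epcam* 234 and 79, so the class differed between the libraries in these genes. Fibroblast markers summed to 1072 and 1003.5 CPM in this class, against 278 and 359 CPM for tumor markers. *Lmo7* in macrophage-like cells stood at 0.611 and 0.644 CPM from 12 and 13 counts and in endothelial-like cells at 36.6 and 29.3 CPM from 18 and 12 counts, so its loss was not detectable at this depth, and the library labelled *Lmo7*-/- is so called because its genotype rests on the label alone.

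Set against tumor cell-like cells, the members fell into those higher in macrophage-like cells and those at a similar or lower level in them. Levels are counts of a gene per 1000000 counts of the summed cells of a class (CPM), and their 95% intervals cover counting error only. The cells were clustered without the 10 genes, but markers named the classes, so the comparisons of classes are descriptions without a test. In macrophage-like cells 7 of the 10 members were at least 1.5-fold higher than in tumor cell-like cells in both libraries, against 21.0% of the 13329 genes compared. These were *Apoe*, *Trem2*, *Lpl*, *Cd36*, *Lgals3*, *Abca1* and *Abcg1*. *Apoe*, at 3740 and 4976 CPM in macrophage-like cells and 33.1 and 31.7 CPM in tumor cell-like cells, differed by 113-fold and 157-fold. *Trem2*, at 181 and 167 CPM against 1.62 and 1.04 CPM, differed by 112-fold and 160.5-fold. *Lgals3* differed least of the 7, at 1680.5 and 1955 CPM against 396 and 706 CPM.

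*Gpnmb* and *Spp1* showed the opposite order. *Gpnmb* stood at 47.6 and 50.6 CPM in macrophage-like cells and at 218 and 146 CPM in tumor cell-like cells. *Spp1* stood at 44.7 and 41.6 CPM in macrophage-like cells and at 232 and 219 CPM in tumor cell-like cells. For *Fabp5* the levels were close, with 306.5 and 362 CPM in macrophage-like cells and 342 and 290 CPM in tumor cell-like cells, and the order of the classes differed between the libraries. A pseudogene copy of *Fabp5* (*Fabp5l2*) is annotated, and reads could be shared with it.

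**Figure D1:**
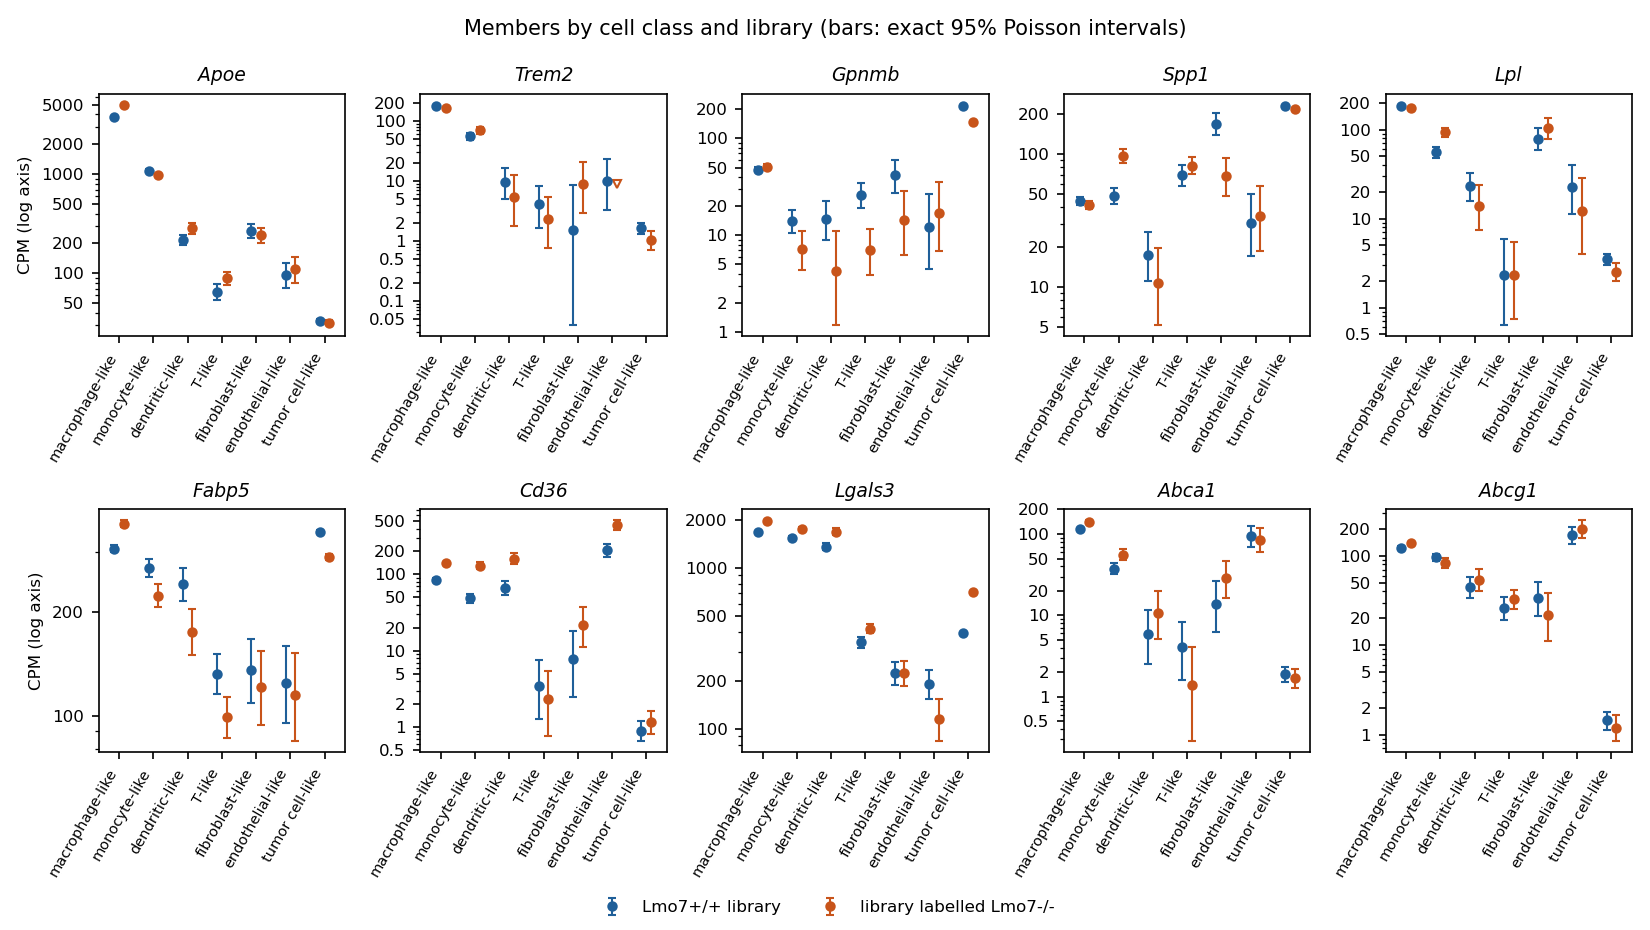
Level of each member in CPM (log axis) in 7 cell classes of the *Lmo7*+/+ library (blue) and of the library labelled *Lmo7*-/- (orange), with bars for exact 95% Poisson intervals. An open triangle gives the upper limit where no count was seen. *Gpnmb* and *Spp1* are highest in tumor cell-like cells, while the levels of *Trem2*, *Lpl*, *Cd36*, *Abca1* and *Abcg1* there are between 0.897 and 3.49 CPM.

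T-like cells, which should lack most of these transcripts, were used as a measure of background. The source of the counts in them, such as free RNA in the droplets, was not tested. After each cell was thinned to 1500 UMIs, a *Trem2* UMI was found in 21.9% of 3229 and 19.3% of 3690 macrophage-like cells (46.9% and 37.8% before thinning). In T-like cells the shares were 0.471% and 0.373% of 425 and 536 cells, and in tumor cell-like cells 0.333% and 0.217%, so that *Trem2* in tumor cell-like cells was at background. For *Gpnmb* the shares were 24.2% and 17.3% in tumor cell-like cells, 3.72% and 2.98% in macrophage-like cells, and 2.35% and 1.12% in T-like cells (58.5%, 48.8%, 7.56%, 6.04%, 4.87% and 1.65% before thinning). For *Spp1* the shares were 22.4% and 21.6% in tumor cell-like cells, 4.46% and 3.93% in macrophage-like cells, and 3.77% and 7.65% in T-like cells (51.0%, 46.9%, 11.2%, 8.91%, 8.70% and 11.3% before thinning). The intervals of macrophage-like and T-like *Gpnmb* shares overlapped in the *Lmo7*+/+ library (3.09% to 4.43% and 1.13% to 4.28%) and lay just apart in the other (2.46% to 3.58% and 0.412% to 2.42%). *Spp1* over all macrophage-like cells did not exceed the T-like cells of the library labelled *Lmo7*-/-, although activated T cells can transcribe *Spp1* themselves. The macrophage-like shares left out 345 and 451 shallower cells, the tumor cell-like shares 479 and 421, and the T-like shares 150 and 192. Median depths before thinning were 5009 and 4316 UMIs in macrophage-like, 6693 and 5743 in tumor cell-like, and 2155 and 2213 in T-like cells.

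Monocytes are blood-derived cells that can mature into macrophages, and the monocyte-like class also carried macrophage markers. Against this class, 5 of the 10 members were at least 1.5-fold higher in macrophage-like cells in both libraries, against 9.65% of 11321 genes. These were *Apoe*, *Trem2*, *Gpnmb*, *Lpl* and *Abca1*. *Apoe* stood at 1083 and 972 CPM in monocyte-like cells, 3.45-fold and 5.12-fold below macrophage-like cells. *Abca1* stood at 37.6 and 55.75 CPM, 3.02-fold and 2.54-fold below. *Lgals3* was within 1.5-fold, at 1544 and 1746.5 CPM, and the log2 ratio of *Spp1* in macrophage-like over monocyte-like cells was −0.13 (−0.36 to 0.10) in the *Lmo7*+/+ library, where a difference was not detectable, and −1.22 (−1.42 to −1.02) in the other. Among the classes with fewer cells, endothelial-like cells had *Cd36* at 209 and 442 CPM and *Abcg1* at 169 and 200 CPM. Both were above macrophage-like cells (84.7 and 139 CPM for *Cd36*, 123 and 139 CPM for *Abcg1*). Dendritic-like cells had *Lgals3* at 1358 and 1681 CPM and *Cd36* at 67.1 and 161 CPM, close to macrophage-like cells. Fibroblast-like cells had *Lpl* at 78.5 and 103 CPM.

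The macrophage-like cells were clustered once more without the members, which gave 7 states. The H2-M2 state (3325 cells) was led by *H2-M2*, *Il18bp* and *Procr*, and the cycling state (1798 cells) by *Ccna2*, *Nusap1* and *Aurkb*. The Arg1 state (898 cells) was led by *Mmp12*, *Atp6v0d2* and *Hspa1b*, with *Arg1* and *Nos2* among its 10 leading genes. The tumor-marker state (637 cells) is called so here because it had the highest summed level of tumor markers (126 CPM, against 10.2 to 87.9 CPM in the others) and a median of only 2081 UMIs. The Cd300e state (538 cells) was led by *Fcrl5*, *Cd300e* and *Clec4b1*, the interferon state (356 cells) by *Cmpk2*, *Ifit3b* and *Ifit3*, and the Retnla state (163 cells) by *Retnla*, *Lyve1* and *Cd209f*, genes of tissue-resident macrophages. The Retnla state also had the highest level of *Ccl8* and of the monocyte marker *Ccr2* among the 7 states, so its name stands for its leading gene and not for an origin.

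*Trem2* and *Abca1* were high both in the Retnla state and in the Arg1 state, and lowest or near lowest in the Cd300e state. *Apoe* was highest in the Retnla state of the *Lmo7*+/+ library (7320 CPM) and in the H2-M2 state of the other library (6854 CPM), and lowest in the Cd300e state of both (2532 and 2363 CPM). *Trem2* was highest in the Retnla state of the *Lmo7*+/+ library (474 CPM) and in the Arg1 state of the library labelled *Lmo7*-/- (269 CPM), where its interval overlapped with that of the Retnla state (239 CPM). *Abca1* stood at 296 and 241 CPM in the Retnla state and at 241 and 283 CPM in the Arg1 state, whose intervals overlap. *Cd36* was highest in the Retnla state in both libraries (208 and 321 CPM), followed by the Arg1 state (176 and 260 CPM), and lowest in the Cd300e state (17.1 and 15.5 CPM). *Lpl* was highest in the Arg1 state of the *Lmo7*+/+ library (394 CPM) and in the Retnla state of the other library (535 CPM). *Abcg1* went another way. It stood at 235 and 234 CPM in the Arg1 state and at 177 and 248 CPM in the Cd300e state, where *Apoe*, *Cd36* and *Lgals3* had their lowest levels, and 103 and 95.4 CPM in the Retnla state.

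**Figure D2:**
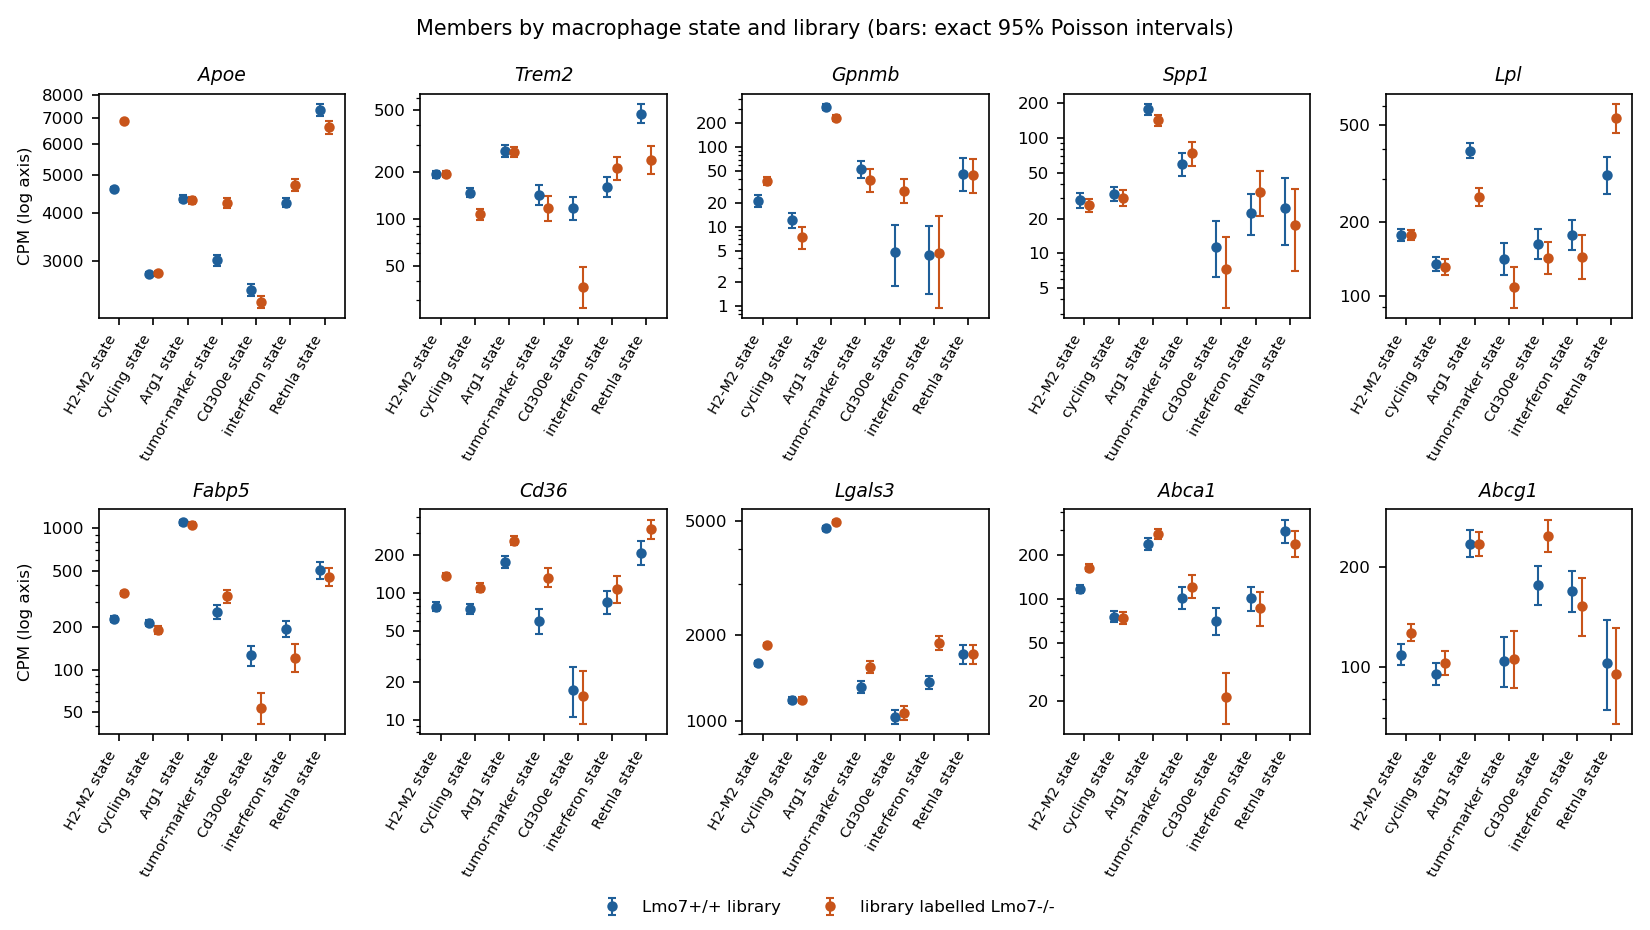
Level of each member in CPM (log axis) in the 7 macrophage states of the *Lmo7*+/+ library (blue) and of the library labelled *Lmo7*-/- (orange), with bars for exact 95% Poisson intervals. *Gpnmb*, *Spp1*, *Fabp5* and *Lgals3* are highest in the Arg1 state of both libraries, and *Cd36* is higher in the library labelled *Lmo7*-/- in 6 of the 7 states.

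The Arg1 state carried most of the set. Of the 10 members 9 were at least 1.5-fold higher there than in the other macrophage-like cells in both libraries, against 4.90% of 11125 genes, and the exception was *Apoe*. *Gpnmb* stood at 324 and 235 CPM in the Arg1 state and at 18.3 and 26.8 CPM in the other macrophage-like cells, a difference of 17.7-fold and 8.78-fold. T-like cells had *Gpnmb* at 26.1 and 6.97 CPM, so that the 17.7-fold is taken against a level at background. *Spp1* stood at 176 and 141.5 CPM against 30.7 and 28.8 CPM, which is 5.73-fold and 4.92-fold. *Fabp5* stood at 1104 and 1063.5 CPM against 222 and 271 CPM, which is 4.975-fold and 3.92-fold. *Lgals3* stood at 4720 and 4963 CPM against 1358 and 1567.5 CPM, which is 3.475-fold and 3.17-fold. *Abca1*, *Cd36*, *Abcg1*, *Lpl* and *Trem2* were higher by 1.555-fold to 2.45-fold. *Apoe* was 1.18-fold higher in the *Lmo7*+/+ library and 0.850-fold in the other.

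The concentration of *Gpnmb* and *Spp1* in this state was marked. After thinning, the Arg1 state held 10.9% and 12.95% of the macrophage-like cells but 61.7% and 55.7% of their *Gpnmb* UMIs and 42.5% and 43.9% of their *Spp1* UMIs. *Lgals3* UMIs came from it to 30.02% and 33.3%, and *Apoe* UMIs to 12.1% and 11.3%. Single macrophage-like cells, of whichever state, reached up to 13 *Gpnmb* UMIs and 20 *Spp1* UMIs at this depth. In the Arg1 state a *Gpnmb* UMI was found in 16.2% and 9.62% of the cells (23.8% and 13.7% before thinning) and a *Spp1* UMI in 12.2% and 8.996% (21.7% and 16.2% before thinning). The *Gpnmb* shares lay above the intervals of the T-like cells given above, while for *Spp1* in the library labelled *Lmo7*-/- the intervals overlapped. The thinned shares left out 26 and 42 cells of the Arg1 state. Over all macrophage-like cells, those with a *Gpnmb* UMI more often had a *Fabp5* UMI (54.2% and 73.6%, against 22.3% and 21.96% of the cells without) and an *Abca1* UMI (32.5% and 35.5%, against 13.2% and 16.8%). For *Apoe* the shares were 90.0% and 93.6% against 88.7% and 88.4%.

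Other genes were taken from 8 lists of lipid handling and of companions, partners and markers of lipid-associated macrophages. The 10 with the largest ratios toward a higher level in the Arg1 state were *Fabp4*, *Hilpda*, *Emp1*, *Plin2*, *Vat1*, *Slc27a1*, *Ctsl*, *Csf1*, *Olr1* and *Lrp1*. Of these, *Fabp4*, *Emp1*, *Vat1*, *Slc27a1*, *Ctsl* and *Csf1* were at least 1.5-fold lower in macrophage-like than in tumor cell-like cells in both libraries, like *Gpnmb* and *Spp1*. *Hilpda*, *Plin2*, *Olr1* and *Lrp1* were at least 1.5-fold higher. *Fabp4*, a fatty acid carrier related to *Fabp5*, stood at 17.0 and 17.4 CPM against 0.844 and 1.12 CPM. *Plin2*, which coats lipid droplets, stood at 392 and 335.5 CPM against 133 and 145 CPM, and *Hilpda*, an inhibitor of lipolysis induced by hypoxia, at 606 and 578 CPM against 171 and 180.5 CPM. Among the lists, 2 of 11 genes of lipid storage, 4 of 13 of fatty acid binding and oxidation, 2 of 11 of lipoprotein uptake, 5 of 13 companions of lipid-associated and disease-associated macrophages, 0 of 12 further genes of cholesterol efflux and 0 of 9 partners of TREM2 were past 1.5-fold and higher in both libraries. The median log2 ratio, averaged over the libraries, was 1.19 over the members, 0.05 over the efflux genes and −0.13 over all genes. None of the 12 measured partners of osteopontin, galectin-3 and GPNMB was past 1.5-fold, and of the 4 lipid-associated TAM markers of the study (*Slamf9*, *Pld4*, *Acp5* and *Maf*) none was higher and *Pld4* was lower. From the other lists, *Marco*, *Lipe*, *Inpp5d* and *Axl* were also past 1.5-fold and lower in both libraries. The share of all genes past it and lower was not determined for this comparison. All 11 measured hypoxia genes and 7 of 12 genes of dissociation and heat shock were also higher in the Arg1 state, with summed levels of 7306 and 6371 CPM over both libraries, and all 10 proliferation genes were lower. Hypoxia genes summed to between 2696 and 3968.5 CPM in the other states. Genes of dissociation and heat shock were higher in the interferon state (7340 CPM) than in the Arg1 state, and between 2258 and 4325 CPM in the rest. Tumor markers summed to 39.4 CPM in the Arg1 state, against 19.2 and 19.8 CPM in the H2-M2 and cycling states. The tumor-marker state (126 CPM) and the Retnla state (87.9 CPM) had more. The part of any of these genes, or of tumor cell RNA, in the levels of the members was not tested.

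**Figure D3:**
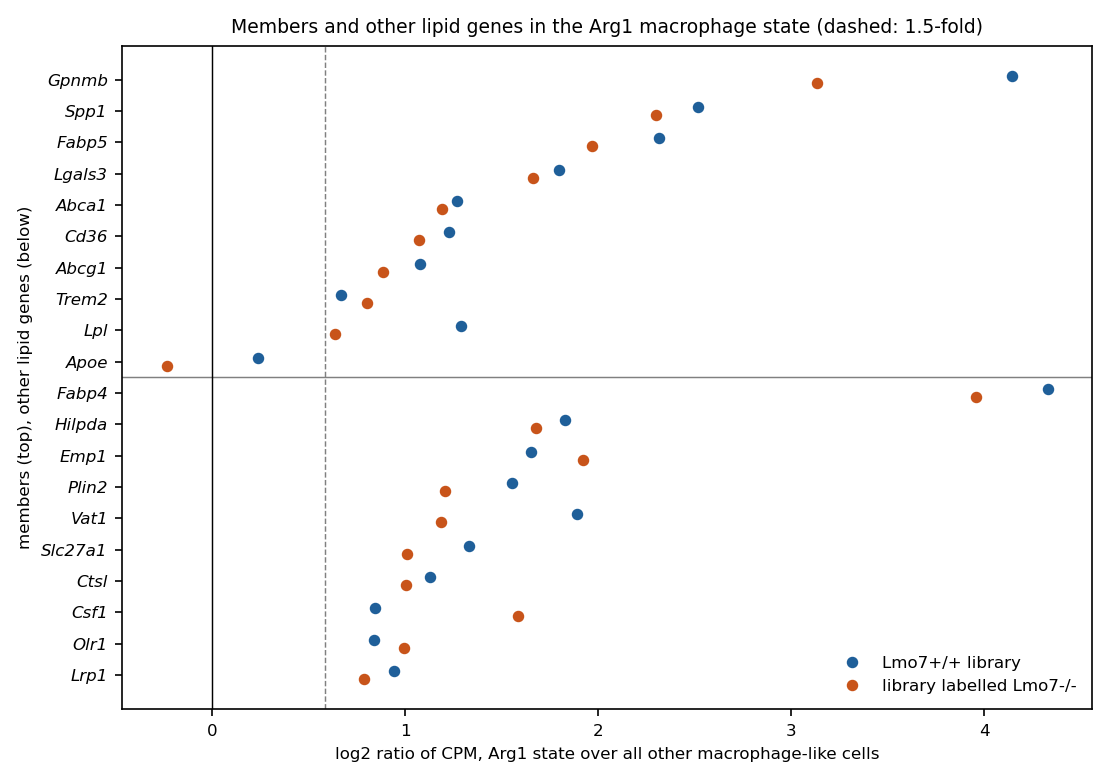
Log2 ratio of CPM in the Arg1 state over all other macrophage-like cells for the 10 members (top) and for the 10 other lipid genes with the largest ratios (below), in the *Lmo7*+/+ library (blue) and the library labelled *Lmo7*-/- (orange). All members but *Apoe* lie to the right of the dashed line at 1.5-fold in both libraries, and *Gpnmb* (4.15 and 3.13) and *Fabp4* (4.33 and 3.96) lie farthest to the right.

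Between the libraries, *Cd36* was the member of macrophage-like cells that differed most. Its level was 84.7 CPM (95% interval 80.7 to 88.8) in the *Lmo7*+/+ library and at 139 CPM (134 to 145) in the library labelled *Lmo7*-/-, a log2 ratio of 0.72 (0.63 to 0.81). It was the only 1 of the 10 past 1.5-fold, where 3.65% of 12207 genes were past it and higher and 6.19% were past it and lower in the library labelled *Lmo7*-/-. After thinning, a *Cd36* UMI was found in 9.23% and 14.5% of the macrophage-like cells (21.8% and 30.02% before thinning), against 0.706% and 0.560% of T-like cells. Under 15 alternative settings the log2 ratio lay between 0.67 and 0.83.

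The other members of macrophage-like cells differed less. *Apoe* had a log2 ratio of 0.41 (0.40 to 0.43), *Abca1* of 0.32 (0.24 to 0.40), *Fabp5* of 0.24 (0.19 to 0.29), *Lgals3* of 0.22 (0.20 to 0.24) and *Abcg1* of 0.17 (0.09 to 0.25). *Gpnmb* had 0.09 (−0.04 to 0.22), while *Lpl* (−0.07), *Spp1* (−0.10) and *Trem2* (−0.11) were near the median of all genes, which was −0.11. Scaling by TMM, a method that centres most genes on no change, added 0.10 to each value in macrophage-like cells, which put *Gpnmb* at 0.19 (0.06 to 0.32), and relative to the median *Trem2*, *Spp1* and *Lpl* have no clear direction. The median of the 10 members was 0.20, at percentiles of all genes between 48.6 (*Trem2*) and 97.5 (*Cd36*).

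**Figure D4:**
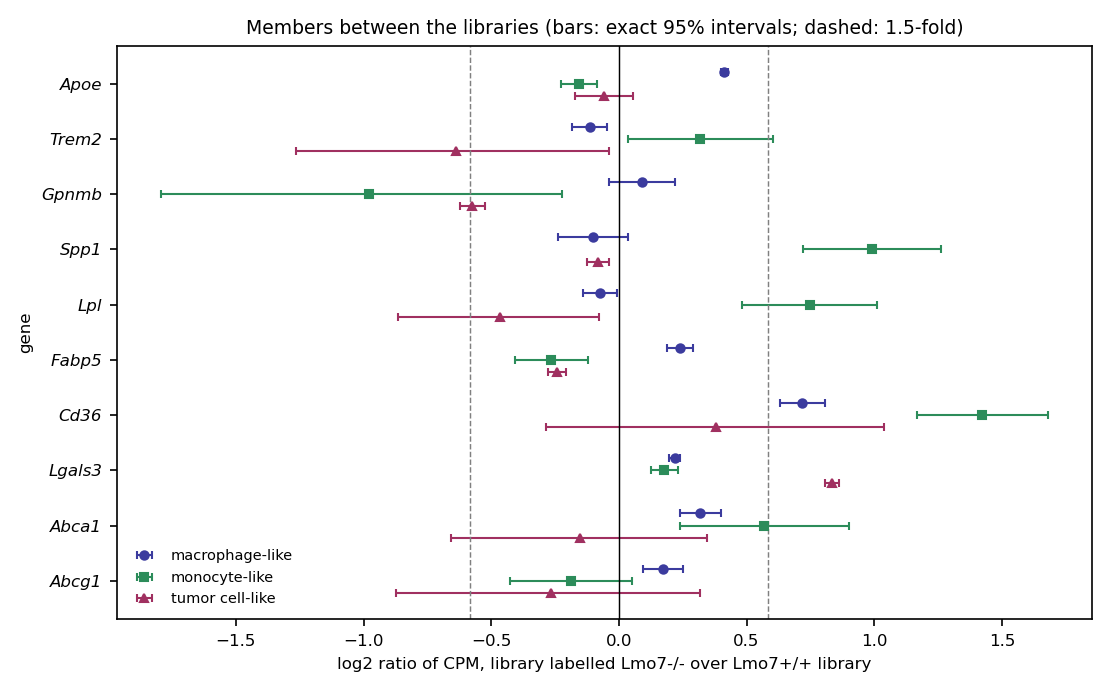
Log2 ratio of CPM, library labelled *Lmo7*-/- over *Lmo7*+/+ library, of each member in macrophage-like (circles), monocyte-like (squares) and tumor cell-like cells (triangles), with exact 95% intervals for counting error and dashed lines at 1.5-fold. *Cd36* is to the right in macrophage-like (0.72) and monocyte-like cells (1.42), and *Lgals3* in tumor cell-like cells (0.83).

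Within the states the differences were uneven. *Cd36* was higher in the library labelled *Lmo7*-/- in the H2-M2 (78.4 to 137 CPM), cycling (75.2 to 111 CPM), Arg1 (176 to 260 CPM), tumor-marker (60.3 to 133 CPM) and Retnla states (208 to 321 CPM), with intervals of the log2 ratio above 0. In the interferon state (0.34, −0.12 to 0.80) and the Cd300e state (−0.14, −1.12 to 0.83) a difference was not detectable at this depth. *Apoe* was higher in the H2-M2 state (4594 to 6854 CPM) and the tumor-marker state (3015 to 4240 CPM), while in the cycling state (2784 and 2797 CPM) and the Arg1 state (4341 and 4302 CPM) the levels differed by less than the counting error. It was higher in the interferon state (4243 to 4718 CPM) and lower in the Retnla (7320 to 6621 CPM) and Cd300e states (2532 to 2363 CPM), in each beyond counting error. *Fabp5* had log2 ratios of 0.60 in the H2-M2 state and −1.23 in the Cd300e state, and *Gpnmb* of 0.84 in the H2-M2 state and −0.46 in the Arg1 state. After thinning, *Gpnmb* was found in 1.92% and 2.49% of the cells of the H2-M2 state (4.46% and 5.46% before). The intervals of these shares overlap with those of T-like cells, so that the *Gpnmb* difference in the H2-M2 state lies near the background. *Lpl* was lower in the Arg1 state of the library labelled *Lmo7*-/- (394 to 255 CPM) and higher in its Retnla state (313 to 535 CPM). *Trem2* was lower in the library labelled *Lmo7*-/- in the Cd300e state (117 to 36.7 CPM), the Retnla state (474 to 239 CPM) and the cycling state (148 to 107 CPM) and higher in its interferon state (161 to 211 CPM), and *Abca1* was lower in the Cd300e state (70.8 to 21.2 CPM). States were defined on cells of both libraries, and the H2-M2 state held 37.7% and 47.8% of the macrophage-like cells. With the states weighted by their pooled share, the log2 ratio of *Cd36* was 0.67.

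In monocyte-like cells *Cd36* differed in the same direction and by more, with 48.7 CPM (42.1 to 56.0) in the *Lmo7*+/+ library and 130 CPM (117 to 145) in the other, which gives 1.42 as log2 ratio (1.17 to 1.68). The higher members were *Cd36*, *Spp1* and *Lpl*, against 4.01% of 9836 genes past 1.5-fold and higher in the library labelled *Lmo7*-/-, and the lower one was *Gpnmb*, against 7.03% past it and lower. *Spp1* stood at 48.95 and 97.2 CPM and *Lpl* at 55.4 and 92.9 CPM, and neither stayed past 1.5-fold under every alternative: at a clustering resolution of 1.0 their log2 ratios were 0.58 and 0.35, *Spp1* had 0.47 with the strict cell filter and *Lpl* 0.42 with 20 principal components. *Cd36* stayed past it under all 13 alternatives that gave a value, between 1.14 and 2.34. The make-up of the class also differed between the libraries. Neutrophil markers summed to 272 and 76.1 CPM, endothelial markers to 68.2 and 109 CPM and the 10 monocyte markers to 3248 and 2966 CPM, and *Chil3*, a gene of blood monocytes, stood at 148 and 86.8 CPM. Their part in the differences of the members was not tested. *Spp1* was found in 5.21% and 9.43% of the cells after thinning (11.04% and 16.6% before), close to the T-like cells given above, and its intervals overlap with theirs. *Gpnmb*, with 57 and 20 counts, was found in 2.38% and 0.898% (4.56% and 1.85% before), at the level of T-like cells, so that its difference lies within the background. *Lpl* was found in 5.32% and 8.98% (9.93% and 14.5% before), against 0.235% and 0.187% of T-like cells. Thinning left out 104 and 90 monocyte-like cells, whose class had medians of 3532 and 2965 UMIs.

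When the monocyte-like cells were clustered again, *Cd36* was higher in the library labelled *Lmo7*-/- in each of 4 clusters, although in the cycling cluster (51.9 and 80.4 CPM) the interval of the log2 ratio (−0.23 to 1.49) included 0. The smallest cluster, of 78 and 29 cells, had only 8 and 8 *Cd36* counts, with an interval of 0.008 to 3.23. *Cd36* went from 48.9 to 123 CPM in the largest cluster, led by *Pgf*, *Mgl2* and *Gbp2b*, and from 57.1 to 192 CPM in the cluster led by *Ace*, *Chil3* and *Slpi*, genes of blood monocytes. In this second cluster *Spp1* went from 97.9 to 267 CPM and *Lpl* from 51.3 to 151 CPM. In the cycling cluster *Spp1* (64.9 and 64.9 CPM) and *Lpl* (41.1 and 40.2 CPM) were level. In dendritic-like cells, too, *Cd36* was higher, by 1.26 on the log2 scale (0.87 to 1.65), with 67.1 and 161 CPM. Endothelial-like cells, another cell type that takes up fatty acids through CD36, had a log2 ratio of 1.08 (0.72 to 1.44).

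In tumor cell-like cells, whose genome does not differ between the libraries by design, *Lgals3* differed most. It was measured at 396 CPM (390 to 401) in the *Lmo7*+/+ library against 706 CPM (697 to 715) in the other, and its log2 ratio was 0.83 (0.81 to 0.86). It was the only member past 1.5-fold and higher, as were 3.12% of 13724 genes, and *Trem2*, from 83 and 33 counts at background, was past it and lower, as were 4.33%. *Gpnmb* was lower by 0.57 on the log2 scale (218 and 146 CPM), just short of 1.5-fold, *Fabp5* had a log2 ratio of −0.24 and *Spp1* of −0.08. After thinning, *Lgals3* was found in 35.9% and 46.5% of the tumor cell-like cells (65.7% and 71.4% before), against 31.5% and 37.1% of T-like cells, which can transcribe *Lgals3* themselves. The log2 ratio of *Lgals3* lay between 0.41, at a clustering resolution of 0.2 that left 1901 tumor cell-like cells, and 0.88, with another scaling. This class also differed between the libraries in *Krt8* and *Krt18*, as given above. The part of its make-up in the differences of the members was not tested.

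The difference in *Lgals3* held in each of the 3 tumor cell-like clusters. It went from 576 to 1050 CPM in the cluster led by *Cdsn*, *Car9* and *Ndufa4l2*, which carries hypoxia genes, from 195 to 371 CPM in the cycling cluster led by *Mxd3*, *Anln* and *Trip13*, and from 392 to 515 CPM in a cluster of cells with a median of only 0.246% mitochondrial UMIs, led by *Gm26917*, *Cnih2* and *Hoxc10*. In an unnamed CD45-low cluster of 2255 cells, led by *Enpp2*, *Tubb2b* and *Igfbp5* and with the stromal genes *Pdgfrb* and *Col3a1*, *Lgals3* was close to level (250.1 and 269.5 CPM). That cluster differed instead in *Gpnmb*, from 123 to 30.4 CPM, and in *Spp1*, from 132 to 55.1 CPM. *Spp1* in the *Car9* cluster was level, at 305 and 312 CPM. Hypoxia genes had a median log2 ratio of 0.46 in tumor cell-like cells and 0.38 in macrophage-like cells, and 3 of 12 and 2 of 12 were past 1.5-fold and higher. Genes of dissociation and heat shock had medians of −0.32 and −0.33, with 5 of 12 and 2 of 12 past it and lower. The part of either in the differences of the members was not tested.

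**Figure D5:**
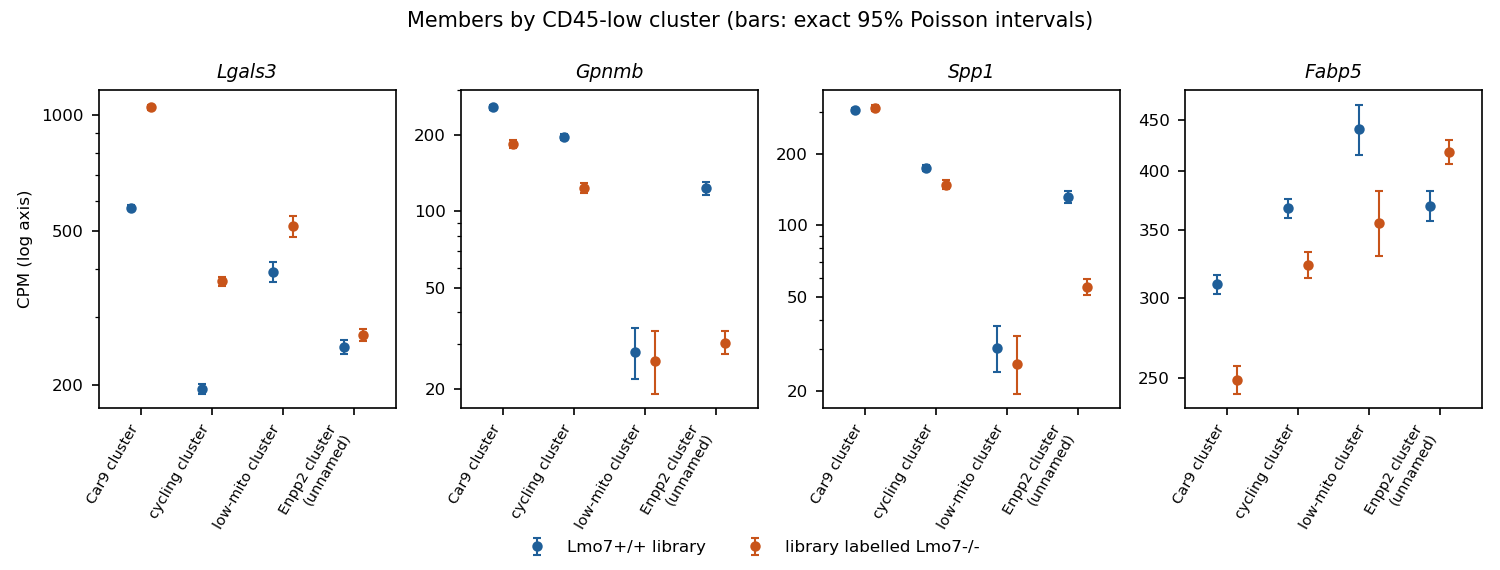
Level in CPM (log axis) of *Lgals3*, *Gpnmb*, *Spp1* and *Fabp5* in the 3 tumor cell-like clusters and in the unnamed *Enpp2* cluster of the *Lmo7*+/+ library (blue) and of the library labelled *Lmo7*-/- (orange), with bars for exact 95% Poisson intervals. *Lgals3* is higher in the library labelled *Lmo7*-/- in the 3 tumor cell-like clusters, and *Gpnmb* is lower there in the *Enpp2* cluster.

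Of the other genes of the 8 lists in macrophage-like cells, *Acsl1*, *Cst7* and *Cd163* were past 1.5-fold and higher and *Emp1* was past it and lower in the library labelled *Lmo7*-/-. These were 1 of 12 genes of lipoprotein uptake, 1 of 13 of fatty acid binding and oxidation and 2 of 13 companions of lipid-associated and disease-associated macrophages, and none passed among the 12 efflux genes, 11 storage genes, 9 partners of TREM2, 12 partners of osteopontin, galectin-3 and GPNMB and 4 TAM markers of the study. Among all genes 3.65% were past it and higher and 6.19% past it and lower, and so few calls are given as values and not as a result about these lists. *Acsl1*, which activates fatty acids for storage or oxidation, stood at 37.65 and 59.97 CPM (log2 ratio 0.67, 0.54 to 0.81). *Cst7*, a cysteine protease inhibitor, stood at 2.44 and 6.24 CPM, and *Emp1*, a membrane protein, at 53.0 and 33.2 CPM. *Cd163*, a scavenger receptor, had only 17 and 43 counts. The medians of the 8 lists lay between −0.01 and 0.18, all above the −0.11 of all genes.

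Levels over the 7 states and the monocyte-like cells of both libraries, 16 profiles that share libraries and depth, were also compared between genes by Pearson's r of log2(CPM + 1), as a description. Among the members the closest pair was *Trem2* and *Abca1* (r = 0.93), and the most distant was *Cd36* and *Abcg1* (r = −0.24). Of 4624 other genes, *Trem2* was most like *Pf4* (0.95) and *Dab2* (0.90), *Abca1* like *Trf* (0.92) and *Pf4* (0.91), and *Apoe* like *Ctsb* (0.93) and *Igf1* (0.92). *Gpnmb* was most like *Eaf1* (0.88) and *Appl2* (0.88), *Spp1* like *Ndrg1* (0.90) and *Mkrn1* (0.89), *Lgals3* like *Osbpl8* (0.93) and *Fth1* (0.92), and *Fabp5* like *Srxn1* (0.91) and *Lrp1* (0.91). *Cd36* was most like *Cxcl1* (0.92) and *Pla2g7* (0.91), *Lpl* like *Dhrs3* (0.92) and *Rragc* (0.92), and *Abcg1* like *Asph* (0.85) and *H2afj* (0.83).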

How the data were processed

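Live cells from MC38 tumors were measured by single-cell RNA-seq in 1 library per genotype, for which the study names the 10x Chromium system. The deposited barcodes have 24 bases, and the platform is given here on the word of the study. The authors deposited raw UMI counts per gene and cell, for which the submitters' notes name Cell Ranger 2.1.1 and mm10. Cells were kept if they had 500 genes and 1000 UMIs or more, with no more than 15% of UMIs from mitochondrial genes. Counts per cell were scaled to 10000, log-transformed, reduced to 2000 variable genes without the 10 members and 30 principal components, and clustered jointly (20 neighbours, Louvain resolution 0.5). Clusters were named from markers, and the limits of the naming rule were set after the data were seen. Doublets were kept, and Scrublet marked 2.82% and 2.37% of the cells. Clusters left unnamed held 2549 and 2165 cells.

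Counts were summed per class and library, and genes with at least 20 counts were compared as log2 ratios of CPM, with exact 95% Poisson or binomial intervals. The members, lists and comparisons were chosen with earlier results of these data known. Other genes were named when they led a state (the leading genes of the tumor-marker state are not reported here), passed 1.5-fold with at least 100 counts in macrophage-like cells, ranked among the 10 largest ratios in the Arg1 state, or were most like a member. *Cd163*, *Pld4*, *Marco*, *Lipe*, *Inpp5d*, *Axl*, *Arg1*, *Nos2*, *Ccl8* and *Ccr2* and the genes that lead clusters of tumor cell-like, monocyte-like and unnamed cells were named after their values were seen. Alternatives were other filters, doublet removal, resolutions of 0.2 and 1.0, 20 components, members in the clustering, cells without UMIs of other types, TMM and median-of-ratios scaling, means over cells, pooled state weights, other minimum counts and folds, and unthinned shares. The log2 ratio was tested on simulated data. Tools were Python 3.11.15, scanpy 1.11.5, igraph 0.11.9, scikit-learn 1.9.0, scipy 1.17.1 and edgeR 4.0.16 (TMM only).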

Additional observations from a re-analysis of the deposited data

Results flagged for a closer look

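For some members the log2 ratio between the libraries had opposite signs in different cell classes on the CPM scale, with both intervals away from 0 and a gap of at least 1.5-fold. The opposite signs depend in part on the scaling, since with TMM the intervals of *Lpl* in macrophage-like cells (−0.04 to 0.10) and of *Spp1* (−0.08 to 0.004) and *Trem2* (−1.22 to 0.005) in tumor cell-like cells included 0. The difference between the classes was not tested, since each class comes from the same 2 libraries. *Lpl* had a log2 ratio of 0.75 in monocyte-like cells, −0.07 in macrophage-like cells and −0.47 in tumor cell-like cells, which gives −0.82 for macrophage-like minus monocyte-like and 1.21 for monocyte-like minus tumor cell-like cells. In tumor cell-like cells *Lpl* was at background, with thinned shares of 0.750% and 0.557% inside the intervals of T-like cells (0.006% to 1.30% and 0.005% to 1.03%). *Spp1* had 0.99 in monocyte-like and −0.08 in tumor cell-like cells, a gap of 1.07, with its share in monocyte-like cells close to that of T-like cells. *Trem2* had 0.32 in monocyte-like and −0.64 in tumor cell-like cells, a gap of 0.955, but its 83 and 33 counts in tumor cell-like cells are at background.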

How the results depend on the processing

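The count of members past 1.5-fold between the libraries was 1 in macrophage-like, 4 in monocyte-like and 2 in tumor cell-like cells. With a 2-fold threshold these counts were 0, 1 and 0, and with a threshold lowered to a 25% increase or its inverse they were 2 in macrophage-like and 5 in tumor cell-like cells. In monocyte-like cells *Abca1* (0.57) passed the lowered threshold besides *Cd36*, *Spp1*, *Lpl* and *Gpnmb*. The share of all genes was not determined at these other thresholds, so the counts are no result about the members. With the members used for clustering 4 passed in tumor cell-like cells. At a resolution of 0.2 no cluster was named monocyte-like, so that its results have no value there. *Gpnmb* in monocyte-like cells changed sign with doublets removed, to a log2 ratio of 0.18 (−0.70 to 1.03), and the cause was not tested. The counts of members higher in macrophage-like cells than in tumor cell-like cells (7 to 9) or monocyte-like cells (4 to 6) and of members higher in the Arg1 state (6 to 9) stayed within 1.5 times their main value under every alternative that gave one. For these counts the share of all genes was determined in the main setting only. In monocyte-like cells *Spp1* ranged from 0.47 to 1.58 and *Lpl* from 0.35 to 1.65, and the cause was not tested. Of the 10 log2 ratios in macrophage-like cells, *Gpnmb* (−0.15 to 0.26), *Spp1* (−0.33 to 0.09), *Lpl* (−0.15 to 0.03) and *Trem2* (−0.18 to 0.02) changed sign under some alternatives, and the other 6 under none of 15. Removing cells with UMIs of other types left out 4095 of 5280 and 2535 of 3652 tumor cell-like cells. Settings without the cluster of low mitochondrial share, with the *Enpp2* cluster and without the tumor-marker state were chosen after the data were seen. No paired analysis was possible because each genotype has 1 library. Depth limits genes with few counts, such as *Gpnmb* in the interferon state (5 and 3 counts).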
